A study of Mus musculus with 36 samples.

Results

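The T and NK cell genes described here are *Cd3e*, *Cd3d*, *Cd3g*, *Cd4*, *Cd8a*, *Cd8b1*, *Lck*, *Il7r*, *Foxp3* and *Nkg7*. They were chosen by symbol, as genes of T cells and NK cells that could be looked up in the table, and each symbol matched 1 row, so 10 of the 24750 genes are members. RNA was sequenced from the epididymal white adipose tissue (eWAT) of 36 male mice, in 12 groups of 3. The mice were either WT or CCL19-KI, received a normal diet (ND), a 40% high-fat diet (HFD) or a 60% HFD, and had or did not have a ligature around the upper molars of both sides. The ligature state follows the labels, of which 18 name no ligature. The methods divide the mice into those with and without ligature, but their RNA-seq part and the design text name only ligatured mice. A comparison by ligature thus holds only as far as the labels do. In CCL19-KI mice the murine *Ccl19* gene sits in the *Adipoq* locus, so that adipocytes express it, and the line was kept homozygous. The WT mice were C57BL/6 mice bred apart from that line, and genotype and line cannot be told apart. The diets were given for 10 weeks, the ligature was placed after 8 weeks of feeding, at 14 weeks of age, and eWAT was taken at 16 weeks of age. Lymph nodes were removed from the tissue before RNA extraction, as stated in the RNA-seq part of the methods, which names only ligatured mice. Values are CPM, read counts scaled to the size of each library, as normalized by the authors with edgeR, and 1 read was worth 0.0472 to 0.0834 CPM.

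*Cd3e*, *Cd3d* and *Cd3g* encode the invariant chains of CD3, which carry the signal of the T cell receptor into the cell, where the kinase encoded by *Lck* starts the cascade. CD4 and the CD8 chains, encoded by *Cd4*, *Cd8a* and *Cd8b1*, are the coreceptors that divide helper from cytotoxic T cells. Interleukin-7 receptor alpha, from *Il7r*, keeps naive and memory T cells alive, *Foxp3* encodes the transcription factor of regulatory T cells, and *Nkg7* encodes a protein of the cytotoxic granules of NK and CD8+ T cells. CCL19 draws T cells and dendritic cells that bear the receptor CCR7, and adipose tissue holds T cells, regulatory T cells among them, beside large numbers of macrophages.

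Reads per library ranged from 11962228 to 21581595. The inserted gene was checked first. *Ccl19* was 0.507 to 4.51 CPM in 17 of the WT libraries and 5.57 to 34.6 CPM in 17 of the CCL19-KI libraries. The row *Gm2564*, whose sequence was not compared with *Ccl19* here, was looked at beside it. It was listed at 0 in 16 of those 17 WT libraries and at 0.160 CPM in the other, and was 11.7 to 108 CPM in those 17 CCL19-KI libraries. The other 2 libraries went against their labels, by a limit of 1 CPM of *Gm2564*. The library labelled WT, ND, no ligature, replicate 2 held 19.2 CPM of *Ccl19* and 41.9 CPM of *Gm2564*, and the library labelled CCL19-KI, 60% HFD, no ligature, replicate 3 held 0.687 CPM of *Ccl19* and 0 of *Gm2564*. The paper places pseudogenes near murine *Ccl19*. Reads of near-identical copies can be split by the counting, so the level of *Ccl19* is uncertain. The labels were kept, and results that rest on these 2 libraries are also given without them. Epididymal marker genes summed to over 100 CPM in 9 libraries, among them all 3 of unligatured CCL19-KI mice fed a 60% HFD. The 2 libraries that went against their labels held the most, 5711 CPM in the WT and 9554 CPM in the CCL19-KI library. A fit without them leaves out both the label conflict and the highest epididymal sums, which cannot be told apart. Hepatocyte markers summed to 128 to 39625 CPM and skeletal muscle markers to 19.5 to 507 CPM. B cell markers summed to 45.5 to 713 CPM, and lymph node stroma and high endothelium markers to 2.81 to 156 CPM. The part of lymphoid tissue in the levels of members was not tested.

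Apart from *Il7r*, the T and NK cell genes lay close to what these libraries could count. The mean over 36 libraries was below 1 CPM for 7 of the 10, and *Il7r* alone, at 8.38 CPM, took 58.2% of the reads of all members. Per kilobase of gene model, *Il7r* averaged 1.80 CPM, *Nkg7* 0.724, *Lck* 0.429 and *Cd3d* 0.418. *Cd4* averaged 0.258 CPM per kilobase, *Cd3g* 0.244, *Cd3e* 0.188 and *Cd8b1* 0.156. *Cd8a*, at 0.0910, and *Foxp3*, at 0.0401, were the lowest per kilobase. A median library held 75 reads of *Il7r*, 19 of *Lck*, 14 of *Cd4*, 10 to 12 of each CD3 chain and of *Nkg7*, 5 of *Cd8a* and 3 of *Cd8b1* and *Foxp3*. The value of 3 reads was taken as the floor, 0.142 to 0.250 CPM depending on the library, and *Cd8a* was at or under it in 12 libraries, *Cd8b1* in 20 and *Foxp3* in 26. *Cd8b1* and *Foxp3* each had no read in 3 libraries, which allows up to 3 reads by counting error alone. A gene was tested where at least 3 libraries reached 1 CPM, which 7 members did and *Cd8a*, *Cd8b1* and *Foxp3* did not. In whole tissue, fewer cells of a type and less RNA per cell cannot be told apart.

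The 3 CD3 genes lie together on chromosome 9 (GRCm38, GENCODE M21), *Cd3g* at chr9:44969572-44980431 and *Cd3e* at chr9:44998740-45009627 on the minus strand, and *Cd3d* at chr9:44981786-44987339 on the plus strand between them. Exons of *Cd3e* overlap the antisense gene *Gm48719*. The starts of *Cd3g* and *Cd3d* are 1355 bases apart and face away from each other. Their upstream sequences are shown because the levels of the 3 genes were correlated over the libraries. They are RefSeq promoters on GRCm38.p6, which had entries for 8 of the 10 members (none for *Cd4* and *Cd8b1*), and each is the part of a window of 250 bases before the start that lies outside the annotated gene, 5′ to 3′ on the strand of the gene. *Cd3e* is chr9:45009628-45009861 on the minus strand, *Cd3d* is chr9:44981536-44981785 on the plus strand and *Cd3g* is chr9:44980432-44980681 on the minus strand. Capitals mark the letters AGGAAG or their reverse complement CTTCCT, the core of ETS family sites, and CACCTG or CAGGTG, an E-box.
Cd3e: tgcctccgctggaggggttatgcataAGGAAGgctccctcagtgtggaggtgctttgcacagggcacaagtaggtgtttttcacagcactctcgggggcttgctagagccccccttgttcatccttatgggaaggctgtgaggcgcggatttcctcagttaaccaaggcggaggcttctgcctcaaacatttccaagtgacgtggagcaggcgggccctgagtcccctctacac
Cd3d: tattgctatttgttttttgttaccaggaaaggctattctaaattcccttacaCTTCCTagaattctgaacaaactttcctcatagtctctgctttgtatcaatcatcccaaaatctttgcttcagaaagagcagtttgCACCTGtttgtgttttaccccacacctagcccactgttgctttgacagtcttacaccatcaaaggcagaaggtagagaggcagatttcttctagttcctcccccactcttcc
Cd3g: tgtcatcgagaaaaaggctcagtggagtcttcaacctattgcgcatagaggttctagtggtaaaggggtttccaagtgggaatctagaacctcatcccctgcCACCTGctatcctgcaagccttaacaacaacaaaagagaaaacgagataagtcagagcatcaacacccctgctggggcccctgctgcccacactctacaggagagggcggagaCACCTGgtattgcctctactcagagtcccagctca
In the stretches shown, the ETS letters occur 1 time before *Cd3e* and 1 time before *Cd3d*, and the E-box letters 1 time before *Cd3d* and 2 times before *Cd3g*. The full window of 250 bases of *Cd3e* holds the ETS letters 2 times, the second running into the 16 bases inside the annotated gene. Of 32851 promoters, each searched over its full 250 bases, 29.5% hold the ETS letters and 17.2% the E-box letters on either strand. The RUNX letters TGTGGT or ACCACA, held by 14% of all promoters, are in none of the 3 stretches shown. A match is a description of the letters and not a site that was measured.

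The CD3 chains were low in all 12 groups. *Cd3e* ranged from 0.123 to 1.34 CPM, *Cd3d* from 0.241 to 1.90 and *Cd3g* from 0.219 to 1.77. In WT mice fed an ND, *Cd3e* was 1.03, 0.946 and 0.400 CPM without ligature and 0.483, 1.01 and 0.696 CPM with it. In CCL19-KI mice fed an ND it was 0.944, 0.810 and 0.472 CPM without ligature and 0.635, 0.798 and 0.123 CPM with it. The 4 ND groups overlapped. With a 40% HFD, *Cd3e* was 1.20, 1.22 and 0.682 CPM in unligatured WT mice, 0.439, 1.20 and 0.642 CPM in ligatured WT mice, 0.668, 1.20 and 1.07 CPM in unligatured CCL19-KI mice and 0.527, 1.34 and 0.585 CPM in ligatured CCL19-KI mice. With a 60% HFD it was 0.67, 0.500 and 0.845 CPM in unligatured WT mice, 0.777, 0.241 and 0.379 CPM in ligatured WT mice, 1.25, 1.08 and 0.834 CPM in unligatured CCL19-KI mice and 0.539, 0.610 and 0.745 CPM in ligatured CCL19-KI mice. The highest group mean of *Cd3e* was 1.06 CPM, in unligatured CCL19-KI mice fed a 60% HFD, and the lowest 0.466 CPM, in ligatured WT mice on that diet. *Cd3d* was highest on average in ligatured WT mice fed a 40% HFD (0.512, 1.90 and 0.882 CPM) and lowest in ligatured WT mice fed a 60% HFD (0.648, 0.241 and 0.694 CPM), and these overlap. *Cd3g* was highest in the same group as *Cd3d* (0.659, 1.77 and 1.12 CPM) and lowest in CCL19-KI mice with ligature and a 40% HFD (0.376, 0.848 and 0.219 CPM).

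**Figure D1:**
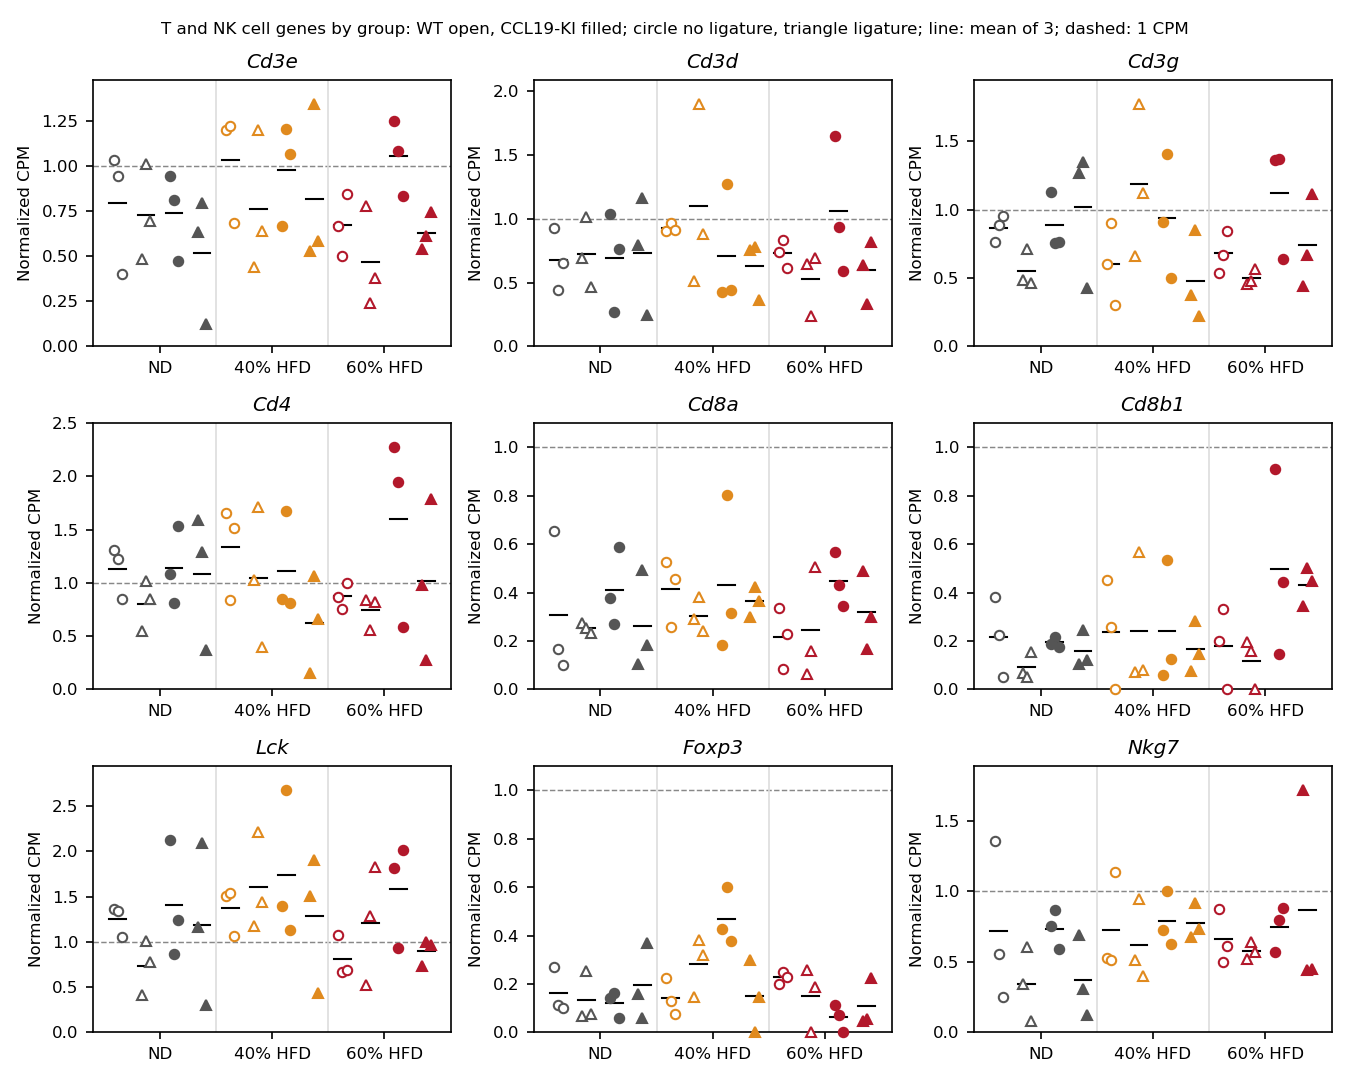
Normalized CPM (vertical axis) of the 9 members other than *Il7r* in each library, by diet (horizontal axis), with open WT and filled CCL19-KI points, circles without and triangles with ligature, a line at each mean of 3 mice and a dashed line at 1 CPM. Most pairs of groups overlap, and no library reaches 1 CPM of *Cd8a*, *Cd8b1* or *Foxp3*, whose highest values are 0.802, 0.909 and 0.602 CPM.

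Of the 66 pairs of groups, those whose values did not overlap numbered 3 for *Cd3e*, 4 for *Cd3d* and 6 for *Cd3g*. The median gene among the 17852 tested had 14 such pairs (21.2%). *Cd4* had 1, *Cd8a* and *Nkg7* 3, *Cd8b1* 7, *Lck* 10, *Foxp3* 13 and *Il7r* 19. With groups ordered by their means, each of the 11 neighbouring pairs overlapped for every member. The spread between mice of a group was 1.89, 2.81 and 2.05 times the variance that counting alone gives for *Cd3e*, *Cd3d* and *Cd3g*. It was 1.07 times for *Foxp3*, 1.74 for *Cd8a*, 2.06 for *Cd8b1*, 2.78 for *Nkg7*, 3.73 for *Lck* and 3.81 for *Cd4*. For the median gene tested it was 13.1 times and for *Il7r* 65.0 times.

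*Cd4*, at chr6:124864692-124888221 on the minus strand, ranged from 0.150 to 2.27 CPM. Its lowest, median and highest values were 0.368, 1.05 and 1.59 CPM with an ND, 0.150, 0.938 and 1.71 CPM with a 40% HFD and 0.277, 0.857 and 2.27 CPM with a 60% HFD, so the diets overlapped. Its highest group mean was 1.60 CPM, in unligatured CCL19-KI mice fed a 60% HFD (2.27, 1.95 and 0.589 CPM, the last from the library that went against its label), and its lowest 0.623 CPM, in CCL19-KI mice with ligature and a 40% HFD (0.150, 1.06 and 0.658 CPM). *Lck*, at chr4:129548344-129573641 on the minus strand, was with *Cd4* and *Il7r* one of the members with a mean above 1 CPM. It averaged 1.26 CPM, reached 1 CPM in 24 libraries, and had medians of 1.11, 1.47 and 0.984 CPM with an ND, a 40% HFD and a 60% HFD. *Lck* was highest in unligatured CCL19-KI mice fed a 40% HFD (1.40, 2.67 and 1.13 CPM) and lowest in ligatured WT mice fed an ND (0.414, 1.01 and 0.774 CPM). Those groups did not overlap, as in 10 of the 66 pairs. *Nkg7*, at chr7:43437073-43438249 and the member nearest to NK cells, averaged 0.662 CPM. Its lowest, median and highest values were 0.0774, 0.573 and 1.36 CPM with an ND, 0.401, 0.703 and 1.14 CPM with a 40% HFD and 0.444, 0.591 and 1.72 CPM with a 60% HFD. The 2 highest libraries of *Nkg7*, at 1.72 and 1.36 CPM, were replicate 1 of ligatured CCL19-KI mice fed a 60% HFD and replicate 1 of unligatured WT mice fed an ND.

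*Cd8a* and *Cd8b1* lie next to each other on chromosome 6, at chr6:71373427-71379173 and chr6:71322788-71337494, and encode the chains of CD8. *Cd8a* gathered 190 reads and *Cd8b1* 135 reads over all 36 libraries. Summed by genotype, *Cd8a* had 79 reads in WT mice against 111 in the knock-in, at means of 0.290 and 0.373 CPM, and *Cd8b1* had 49 and 86 reads, at 0.180 and 0.281 CPM. *Cd8b1* was 0.343, 0.499 and 0.447 CPM (7, 9 and 6 reads) in ligatured CCL19-KI mice fed a 60% HFD and 0.194, 0.161 and 0 CPM (3, 2 and 0 reads) in ligatured WT mice on that diet. These did not overlap. On the log2(CPM + 1) scale the difference was 0.36, with an unadjusted p of 0.0449 and an adjusted p of 1.00 in limma without a filter on low values. Averaged over the 6 pairs of groups, the edgeR test on recovered reads gave 0.57 for *Cd8b1* (adjusted p = 0.550) and 0.35 for *Cd8a* (adjusted p = 0.583) on the log2 scale.

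*Foxp3*, at chrX:7573644-7595245, was the lowest member, with 103 reads in all, and its exons overlap those of *Ppp1r3f*, *Ccdc22*, *Gm36995* and *Flicr*. Its values were 0.425, 0.602 and 0.376 CPM (7, 9 and 6 reads) in unligatured CCL19-KI mice fed a 40% HFD, the highest group mean at 0.468 CPM. In unligatured WT mice on that diet they were 0.225, 0.129 and 0.0758 CPM (3, 2 and 1 reads). In unligatured mice on a 60% HFD the order was the other way. CCL19-KI mice had 0.114, 0.0721 and 0 CPM (2, 1 and 0 reads) and WT mice 0.201, 0.250 and 0.230 CPM (3 reads each). Neither pair of groups overlapped, and neither passed the test. With limma and no filter, the genotype difference with a 40% HFD was 0.36 on the log2(CPM + 1) scale (adjusted p = 0.752), and edgeR gave 1.65 with the 40% HFD (adjusted p = 0.706) and −1.80 with the 60% HFD (adjusted p = 0.202) on the log2 scale. For *Cd8a*, *Cd8b1* and *Foxp3* together, 0 of 84 tests were called by edgeR and 0 of 84 by limma without a filter. At an unadjusted p below 0.05 there was 1 of these tests with edgeR and 6 with limma, 5 of them of *Foxp3*.

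*Il7r*, at chr15:9505788-9530176 on the minus strand, was the only member called between diets. With an ND it was 28.6, 2.28 and 2.80 CPM in unligatured WT mice, 3.10, 2.99 and 2.32 CPM in ligatured WT mice, 4.53, 2.38 and 1.89 CPM in unligatured CCL19-KI mice and 2.38, 3.87 and 2.51 CPM in ligatured CCL19-KI mice. Of the 12 ND libraries, 11 thus lay between 1.89 and 4.53 CPM, and replicate 1 of unligatured WT mice stood apart at 28.6 CPM, the highest but 1 of all 36 libraries. With a 40% HFD it was 2.85, 4.89 and 1.97 CPM in unligatured WT mice, 3.22, 6.14 and 3.69 CPM in ligatured WT mice, 3.83, 6.69 and 4.96 CPM in unligatured CCL19-KI mice and 9.40, 13.2 and 4.24 CPM in ligatured CCL19-KI mice. With a 60% HFD it was 17.9, 7.59 and 11.3 CPM in unligatured WT mice, 6.54, 17.6 and 22.3 CPM in ligatured WT mice, 11.3, 18.5 and 3.04 CPM in unligatured CCL19-KI mice and 22.8, 32.6 and 5.59 CPM in ligatured CCL19-KI mice. Of the 60% HFD libraries, 11 of 12 exceeded 4.53 CPM, and the exception at 3.04 CPM was the library labelled CCL19-KI, 60% HFD, no ligature, replicate 3, which went against its label in *Ccl19*. Of the 40% HFD libraries, 6 of 12 exceeded 4.53 CPM. The median was 2.66 CPM with an ND, 4.57 CPM with a 40% HFD and 14.4 CPM with a 60% HFD, a ratio of 5.44 between the last and the first.

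**Figure D2:**
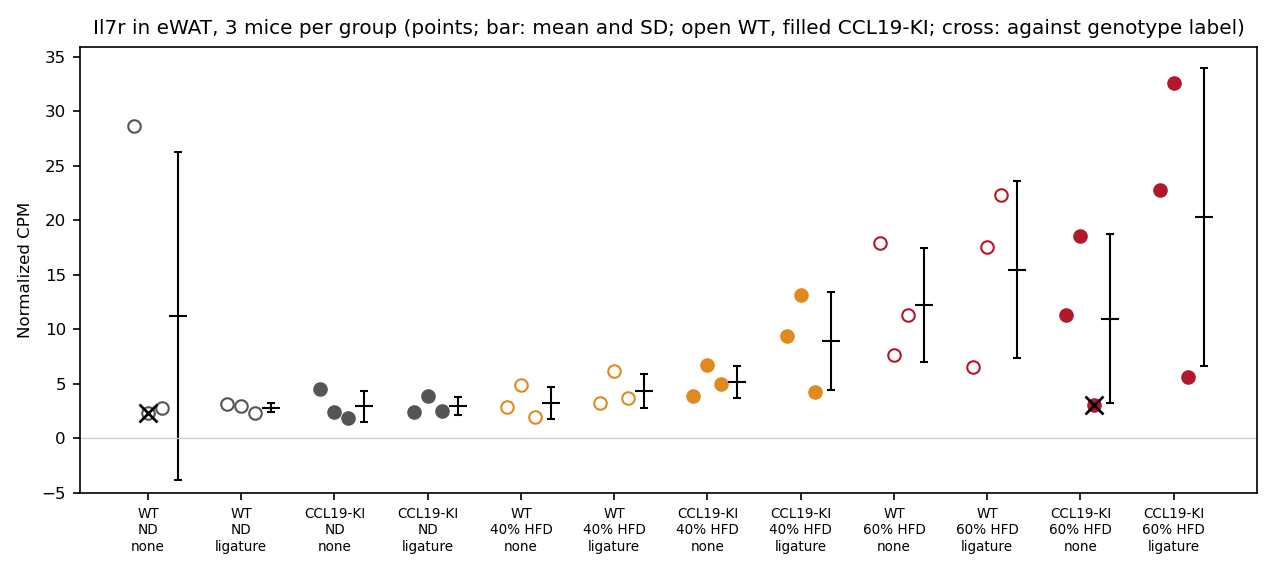
*Il7r* in each of the 36 eWAT libraries (vertical axis, normalized CPM) by genotype, diet and ligature (horizontal axis), with open points for WT, filled points for CCL19-KI, black bars for mean and SD of 3 mice, and crosses on the 2 libraries whose *Ccl19* goes against the label. The 60% HFD groups average 11.0 to 20.3 CPM, and among ND libraries 1 stands apart at 28.6 CPM.

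To ask which members followed diet, genotype or ligature, all 36 mice were fitted together with limma on log2(CPM + 1), p-values were adjusted over the 17852 genes tested, and a gene was called at an adjusted p below 0.05. A difference on that scale understates the change of a gene at low level. In 28 comparisons, a tested member was called in 2, and each time it was *Il7r*. Of 196 tests of members, 8 (4.08%) had an unadjusted p below 0.05, 5 of *Il7r*, 2 of *Cd3g* and 1 of *Cd3e*, while 17.6% of the tests of all genes did. The edgeR test on recovered reads also called a member in 2 comparisons.

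With a 60% HFD against an ND, averaged over the 4 combinations of genotype and ligature, *Il7r* rose by 1.59 on the log2(CPM + 1) scale (SE 0.33, 95% interval 0.91 to 2.26, limma adjusted p = 0.00234). It was the only 1 of 7 members called, where 18.6% of all genes were called. It rose by 1.61 without the 2 libraries that went against their labels (0.96 to 2.25, adjusted p = 0.00241), and by 1.84 without the WT library at 28.6 CPM. The 4 comparisons share no mice with each other and are given side by side. *Il7r* rose by 2.17 in ligatured CCL19-KI mice (0.82 to 3.52, adjusted p = 0.0325), where 12.8% of all genes were called. The difference was 1.97 in ligatured WT mice (adjusted p = 0.102, 2.57% of all genes called), 1.39 in unligatured CCL19-KI mice (adjusted p = 0.148, 10.2% called) and 0.81 in unligatured WT mice (adjusted p = 0.552, 3.41% called), and these did not pass. Without the 2 libraries that went against their labels it was 2.04 in unligatured CCL19-KI mice (adjusted p = 0.0541) and 0.25 in unligatured WT mice (adjusted p = 0.904). The value of unligatured WT mice was 1.83 (adjusted p = 0.0846) without replicate 1 of the ND group, at 28.6 CPM, and 0.25, 0.35 and 0.52 without ND replicate 2, ND replicate 3 and 60% HFD replicate 1. The call in ligatured CCL19-KI mice held in 1 of 6 fits that left out a mouse of the groups compared, at an adjusted p of 0.0174 without replicate 3 of the 60% HFD group. In the other 5 the difference was 1.69 to 2.34 with adjusted p of 0.0561 to 0.132, so it rests on each of those 5 libraries: the 3 ND mice and replicates 1 and 2 fed a 60% HFD.

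The study's methods ask for an unadjusted p no higher than 0.05 and a ratio no lower than 1.5 (or, for a fall, no higher than 0.67). The study took both from edgeR. Here these limits were applied to the limma p and to the ratio on the CPM + 1 scale, which is nearer 1 for genes at low level. By them, *Il7r* was called with a 60% HFD against an ND in the mean of 4 (9.88% of all genes called). It was also called in ligatured WT (11.8%), unligatured CCL19-KI (23.0%) and ligatured CCL19-KI mice (22.5%), and not in unligatured WT mice (12.0%). The 6 other members tested did not pass in the mean of 4. The difference was 0.16 for *Nkg7* (−0.07 to 0.40), 0.02 for *Cd3d* (−0.24 to 0.27), 0.01 for *Cd3e* (−0.21 to 0.23) and −0.06 for *Cd3g* (−0.29 to 0.17). For *Cd4* it was −0.02 (−0.32 to 0.29) and for *Lck* the interval was −0.30 to 0.30. The median over the 7 members was 0.01, as over all genes tested.

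Between the HFDs, *Il7r* was 1.19 higher with 60% than with 40% (0.52 to 1.87), with an adjusted p of 0.0787 in a comparison in which 0.745% of all genes were called. It passed the criteria of the study, as 2.27% of all genes did. The difference was 1.36 and passed without the 2 libraries that went against their labels (adjusted p = 0.0258), and the same came of leaving out only the library labelled CCL19-KI, 60% HFD, no ligature, replicate 3 (1.36, adjusted p = 0.0327) or replicate 3 of ligatured CCL19-KI mice on that diet (1.37, adjusted p = 0.0355). With a 40% HFD against an ND, *Il7r* had the largest difference among the members, 0.39 (−0.28 to 1.07, adjusted p = 0.466). It was 0.65 (adjusted p = 0.121) without the WT library at 28.6 CPM and 0.25 (adjusted p = 0.642) without the 2 libraries that went against their labels. In the fit of all 36 mice, 0 of 7 members were called by limma, none had an unadjusted p below 0.05, and 9.21% of all genes were called. The difference was 0.23 for *Lck* (−0.07 to 0.53), 0.18 for *Nkg7* (−0.05 to 0.42) and 0.16 for *Cd3e* (−0.06 to 0.38). Within combinations, again with 0 members called, the largest difference was −0.82 for *Il7r* in unligatured WT mice (adjusted p = 0.482, 6.03% of all genes called), 0.59 for *Lck* in ligatured WT mice (adjusted p = 0.442, 0.207%), 0.68 for *Il7r* in unligatured CCL19-KI mice (adjusted p = 0.855, 0%) and 1.25 for *Il7r* in ligatured CCL19-KI mice (adjusted p = 0.257, 4.92%). That of unligatured WT mice turned to 0.20 (adjusted p = 0.887) without the library at 28.6 CPM and was −1.38 (adjusted p = 0.186) without the 2 libraries. The ND mice are the same in the comparisons with either HFD.

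**Figure D3:**
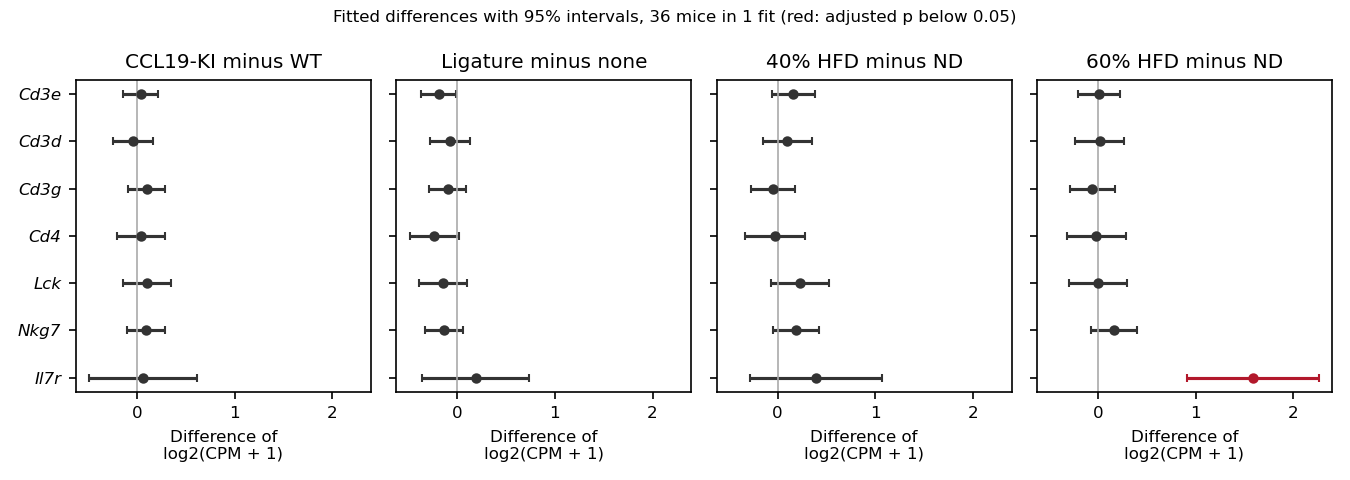
Fitted difference on the log2(CPM + 1) scale (horizontal axis) with its 95% interval for the 7 tested members (vertical axis), in 4 comparisons averaged over the other factors, with calls at an adjusted p below 0.05 in red. The 60% HFD against ND difference of *Il7r*, 1.59, is the only call, and the intervals of the other 6 members hold 0 except that of *Cd3e* for ligature, −0.37 to −0.01.

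The comparison of CCL19-KI with WT mice is the one the study is built on, and no member was called in it. Averaged over the 6 combinations of diet and ligature, limma called 0 of 7 members, 0 had an unadjusted p below 0.05, edgeR called 0, and 0.459% of all genes were called. The largest difference was that of *Lck*, 0.10 on the log2(CPM + 1) scale (−0.15 to 0.34, adjusted p = 0.710), with means of 1.35 CPM in CCL19-KI and 1.16 CPM in WT mice. The differences of *Cd3g* (−0.09 to 0.28), *Nkg7* (−0.10 to 0.29), *Cd3e* (−0.14 to 0.22), *Cd3d* (−0.25 to 0.17) and *Cd4* (−0.21 to 0.29) had intervals of similar width, and that of *Il7r* was wider (−0.49 to 0.61). Without the 2 libraries that went against their labels, 0 of 7 members were called and the largest was *Cd3g* at 0.13 (−0.06 to 0.32, adjusted p = 0.395), while 7.35% of all genes were called.

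Within single combinations the member with the largest genotype difference varied, and limma called 0 members in each. It was *Il7r* in mice fed an ND, at −0.93 without ligature (adjusted p = 0.332, with 16.6% of all genes called). That difference turned to 0.10 without the WT library at 28.6 CPM, and was −1.49 without the 2 libraries that went against their labels (adjusted p = 0.107). With ligature it was *Cd3g*, at 0.35 (adjusted p = 0.592, 1.03% of all genes called). With a 40% HFD it was *Il7r*, at 0.57 without ligature (adjusted p = 0.862, 0.0056% called) and 0.82 with it (adjusted p = 1.00, 0.0112% called). In the ligatured mice fed a 40% HFD, *Cd3g* was 0.659, 1.77 and 1.12 CPM in WT and 0.376, 0.848 and 0.219 CPM in CCL19-KI mice, a difference of −0.55 (−1.01 to −0.09, adjusted p = 1.00 in limma), with groups that overlapped. On a 60% HFD it was *Lck* without ligature, at 0.50 (adjusted p = 0.251, 16.8% of all genes called; 0.38 without the 2 libraries), and *Il7r* with ligature, at 0.23 (adjusted p = 1.00, 0.0112% called). The last turned to −0.26 without replicate 1 of the WT and to −0.25 without replicate 2 of the CCL19-KI group. *Cd4* in unligatured mice fed a 60% HFD, which was 0.41 higher in CCL19-KI mice, was 0.73 higher without the 2 libraries (adjusted p = 0.0984).

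No tested member passed in a test of whether the genotype effect differed between diets or with ligature. The difference of the genotype effect of *Il7r* was 1.14 between a 40% HFD and an ND (−0.21 to 2.49, adjusted p = 0.537), 0.39 between a 60% HFD and an ND (−0.96 to 1.74, adjusted p = 0.760) and 0.59 between ligature and none (−0.51 to 1.69, adjusted p = 0.703). These were the largest among the members. Of all genes, 0%, 0.476% and 0.0056% were called in the 3 tests, and in each 0 members were called by limma and by edgeR and 0 had an unadjusted p below 0.05. In the first, *Il7r* had an unadjusted p of 0.0274 without the 2 libraries (1.42, adjusted p = 0.207).

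For ligature against none, averaged over the 6 combinations of genotype and diet, limma and edgeR called 0 of 7 members, and 0.325% of all genes were called. Of the 7, 6 were lower with ligature and *Il7r* was higher, at 0.19, which was −0.02 without the 2 libraries that went against their labels. The largest difference was that of *Cd4*, −0.24 (−0.49 to 0.01, adjusted p = 0.338), with means of 0.885 CPM with ligature and 1.20 CPM without, and it was −0.28 (adjusted p = 0.235) without the 2 libraries. *Cd3e* was the only member with an unadjusted p below 0.05, at −0.19 (−0.37 to −0.01, adjusted p = 0.277 in limma), with medians of 0.623 CPM with ligature and 0.894 CPM without. Its lowest, median and highest values were 0.123, 0.623 and 1.34 CPM with ligature and 0.400, 0.894 and 1.25 CPM without, so the groups overlapped over most of their range. The median difference of the members was −0.14 and that of all genes −0.02.

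Within combinations, limma called 0 members for ligature in each of the 6. The largest difference with an ND was −0.92 for *Il7r* in WT mice (adjusted p = 0.398, 6.73% of all genes called) and −0.36 for *Nkg7* in CCL19-KI mice (adjusted p = 0.438, 1.37%). That of *Il7r* turned to 0.10 (adjusted p = 0.944) without the library at 28.6 CPM and was −1.49 (adjusted p = 0.145) without the 2 libraries that went against their labels. With a 40% HFD it was 0.43 for *Cd3g* in WT mice (adjusted p = 0.352) and 0.60 for *Il7r* in CCL19-KI mice (adjusted p = 1.00), in comparisons that called 0% of all genes. On a 60% HFD it was 0.25 for *Lck* in WT mice (adjusted p = 1.00, 0%) and 0.81 for *Il7r* in CCL19-KI mice (adjusted p = 0.469, 5.66%). The last was 0.17 (adjusted p = 0.896) without the 2 libraries, 1 of which is in that group.

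Ratios between members ask whether T cell subsets moved unequally. The log2 ratio of *Cd8a* to *Cd4*, each with 1 CPM added, was −0.56 ± 0.37 (SD, n = 18) in CCL19-KI and −0.61 ± 0.22 (SD, n = 18) in WT mice. The difference did not pass (adjusted p = 0.961, permutation test within diet and ligature, two-sided, 8 comparisons). With ligature it was 0.16 higher (adjusted p = 0.528), with a 40% HFD 0.11 higher (adjusted p = 0.785) and with a 60% HFD 0.02 higher than with an ND (adjusted p = 0.978) in the same permutation test. For *Foxp3* to *Cd4*, the regulatory T cell gene against the helper coreceptor, the difference was −0.05 for CCL19-KI against WT (adjusted p = 0.961), 0.21 for ligature (adjusted p = 0.528) and 0.15 for a 40% HFD against an ND (adjusted p = 0.785) in that permutation test. As *Cd8a* and *Foxp3* had medians of 5 and 3 reads per library, these ratios rest on few reads. Each of their values lay below the 1 CPM added, which damps a shift in them, so the test could miss one. Under the 3 alternatives tried, *Cd8a* to *Cd4* differed by 0.000564 to 0.305 between genotypes. *Foxp3* to *Cd4* differed by 0.0342 to 0.539 between a 40% HFD and an ND. No ratio passed in them (lowest adjusted p = 0.429, permutation test).

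Across the 36 libraries the CD3 chains were correlated. Spearman's rho was 0.54 between *Cd3e* and *Cd3d*, 0.50 between *Cd3e* and *Cd3g* and 0.59 between *Cd3d* and *Cd3g*, and *Cd4* followed them at 0.55 to 0.64 and *Lck* at 0.44 to 0.51, while *Cd4* and *Lck* had a rho of 0.32. *Cd8a* and *Cd8b1* had a rho of 0.32, and *Cd8a* and *Nkg7* 0.48. *Foxp3* was related to none of the others beyond −0.10 to 0.15, at its few reads. *Il7r* was less related to the CD3 chains, *Cd4* and *Lck*, with a rho of 0.13 to *Cd3e*, 0.12 to *Cd3d*, 0.05 to *Cd3g*, −0.04 to *Cd4* and 0.11 to *Lck*. Its rho was 0.20 to *Cd8a*, 0.30 to *Cd8b1* and 0.29 to *Nkg7*. With the group means taken out, Pearson's r of *Il7r* was 0.30 to *Cd3e*, 0.31 to *Cd3d*, 0.23 to *Cd3g* and 0.33 to *Lck*. It was 0.07 to *Cd4*, 0.51 to *Cd8a*, 0.19 to *Cd8b1* and 0.40 to *Nkg7*. These values are descriptions over 36 libraries that share 12 groups and differ in depth and in other tissue, and no p is given for them.

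**Figure D4:**
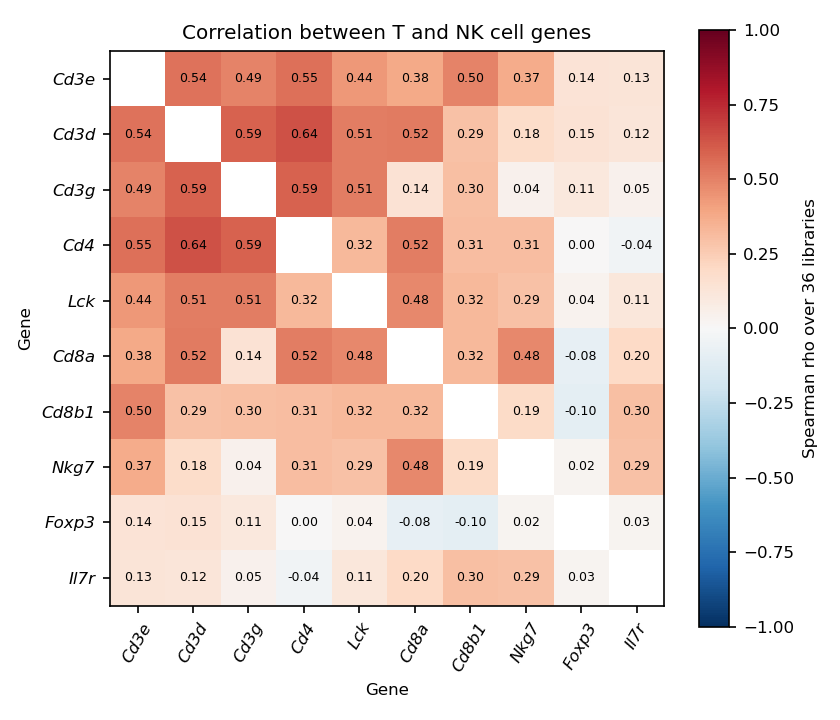
Spearman's rho (colour and printed value) between each pair of the 10 members over 36 libraries, both axes listing the members. The CD3 chains correlate with each other, *Cd4* and *Lck* at 0.44 to 0.64, *Cd4* and *Lck* with each other at 0.32, and *Il7r* with these 5 genes at −0.04 to 0.13.

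The genes whose levels were most like *Cd3e* over the 36 libraries were *Trbc2*, a constant region of the T cell receptor beta chain, with a rho of 0.72, and then *Ikzf3* (0.59), *Slamf6* (0.57), *Acap1* and *Skap1* (0.55 each). Those most like *Il7r*, looked up after its values were seen, were *Adam8* (0.93), *Gm20056*, *Slc37a2* and *Lgals3* (0.91 each) and *Ctss* (0.90). *Lgals3* encodes galectin-3, *Ctss* cathepsin S and *Adam8* a metalloprotease, all made by macrophages among other cells. With the group means taken out, Pearson's r of *Il7r* and *Adam8* was 0.93, and without the WT library at 28.6 CPM rho was 0.93. The median of *Adam8* was 6.28 CPM with an ND, 9.07 CPM with a 40% HFD and 30.4 CPM with a 60% HFD. *Ctss* had medians of 67.1, 98.5 and 180.0 CPM with an ND, 40% HFD and 60% HFD, and *Slc37a2* 6.36, 11.5 and 27.9 CPM. The summed CD3 chains had 2.14, 2.33 and 1.97 CPM.

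**Figure D5:**
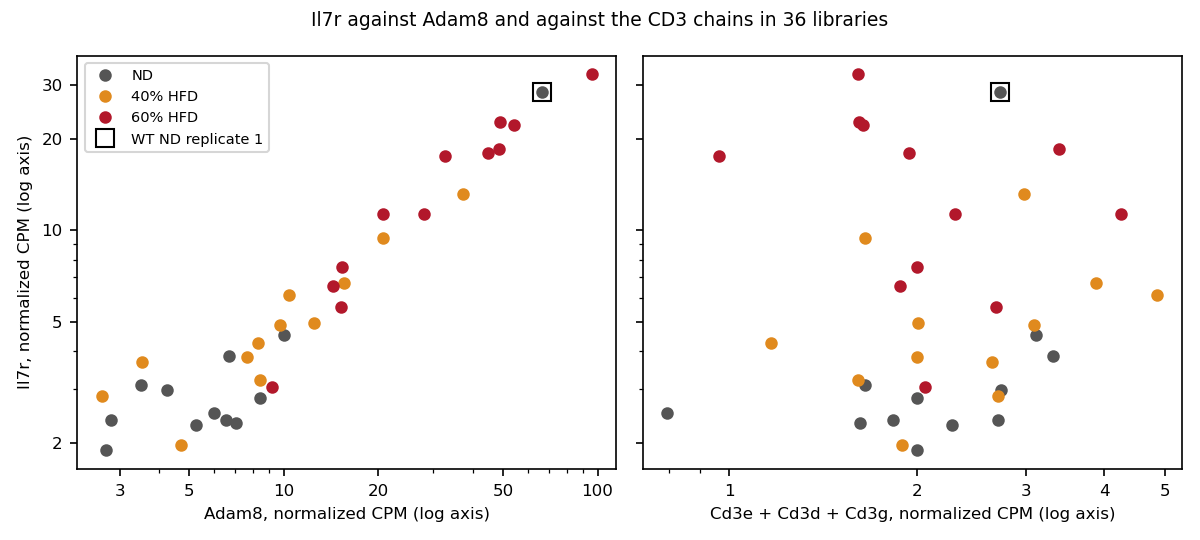
*Il7r* (vertical axis, normalized CPM, log axis) against *Adam8* on the left and against the sum of *Cd3e*, *Cd3d* and *Cd3g* on the right (horizontal axes, normalized CPM, log axes), 1 point for each of 36 libraries, coloured by diet, with replicate 1 of unligatured WT mice fed an ND boxed. *Il7r* follows *Adam8* with a rho of 0.93, and the boxed library lies on that line at 28.6 and 66.6 CPM.

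The WT library at 28.6 CPM of *Il7r* also held 66.6 CPM of *Adam8* and the highest sum of macrophage markers of all libraries, 1613 CPM. Its CD3 chains summed to 2.72 CPM, at rank 10 of 36. It also held the most *Trac*, the constant region of the T cell receptor alpha chain, of all 36 libraries, at 6.91 CPM. The macrophage list (8 genes) summed to 471 to 1613 CPM with an ND and 527 to 1525 CPM with a 60% HFD, with medians of 975 and 1083 CPM. Of its 8 genes, 2 rose and 1 fell with a 60% HFD against an ND, where 18.6% of all genes were called: *Cd68* rose by 1.12 and *Adgre1*, which encodes F4/80, by 0.79, and *Mertk* fell by 0.40 on the log2(CPM + 1) scale. The dendritic cell list summed to 23.8 to 91.0 CPM with an ND and 38.5 to 95.6 CPM with a 60% HFD. Of its 6 genes, *Itgax*, which encodes CD11c, rose by 2.14, and *Zbtb46* fell by 0.27. With the macrophage sum as a covariate, *Il7r* rose by 1.44 with a 60% HFD (adjusted p = 0.00199). No listed macrophage or dendritic marker was at or under 3 reads in every library, and the part of these cells in the level of *Il7r* was not tested.

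Other genes of T and NK cells were looked up in lists of 51 genes, of which *Gzmk* and *Ifng* were not in the table and 37 were tested. Averaged over diets and ligature, limma and edgeR called 0 of the 37 between CCL19-KI and WT mice. In limma 2 of the 37 had an unadjusted p below 0.05, as did 3021 of the 17852 genes tested. The lowest adjusted p was that of *Cd247*, the CD3 zeta chain, at 0.21 (0.220). *Ccr7*, the receptor of CCL19, differed by −0.05 (−0.27 to 0.17). Without the 2 libraries that went against their labels, *Lef1*, a transcription factor of T cells and other cells, was called in this comparison (0.56, adjusted p = 0.0233), where 7.35% of all genes were called. It was 3.35 higher in unligatured CCL19-KI mice fed a 60% HFD. Replicates 1, 2 and 3 of that group held 5.51, 32.5 and 1.37 CPM of *Lef1* and 308, 5206 and 9554 CPM of epididymal markers. Replicate 3 is left out of that fit. In unligatured mice fed a 40% HFD, *Lef1* was 0.0627 to 0.401 CPM in CCL19-KI and 0.451 to 0.531 CPM in WT mice. For ligature, limma and edgeR called 0 of 37. In limma 5 of the 37 had an unadjusted p below 0.05, as did 2885 of the 17852 genes tested. The lowest was that of *Zap70*, a kinase that acts after *Lck* (−0.78, limma adjusted p = 0.237).

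With a 60% HFD against an ND, 4 of the 37 (10.8%) rose and 0 fell, where 18.6% of all genes were called. They were *Themis*, a T cell signalling gene (1.5, adjusted p = 0.00328), *Il2ra*, a chain of the interleukin-2 receptor (0.55, adjusted p = 0.00580), *S1pr1*, which guides lymphocytes out of tissue and is abundant in endothelium (0.44, adjusted p = 0.0129), and *Tyrobp*, an adaptor of NK and myeloid receptors (0.83, adjusted p = 0.0392). With a 40% HFD only *S1pr1* was called (0.50, adjusted p = 0.0117), where 9.21% of all genes were called. *Themis* had medians of 0.491, 2.41 and 4.62 CPM with an ND, 40% HFD and 60% HFD, and *Tyrobp* 44.6, 54.3 and 102 CPM. The summed hepatocyte markers had medians of 3485, 15515 and 13768 CPM with those diets. Their part in the level of *Themis* was not tested. *Trbc2*, the gene most like *Cd3e*, had medians of 1.03, 1.20 and 0.952 CPM. *Trac*, the constant region of the alpha chain, had 0.555, 0.668 and 1.61 CPM, a difference of 0.56 with a 60% HFD against an ND (0.10 to 1.01) that did not pass (adjusted p = 0.0742). The median difference of the 37 genes with a 60% HFD was 0.10, and of all genes 0.01. Without the 2 libraries, 6 of the 37 were called, with *Lef1* (0.80) and *Fcer1g* (0.51) beside those 4, where 15% of all genes were called.

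Within unligatured mice fed a 60% HFD, limma called *Gata3* (4.07), *Lef1* (2.48) and *Skap1* (1.45) higher and *Themis* lower (−2.42) in CCL19-KI mice, 10.8% of the 37 where 16.8% of all genes were called. The 3 CCL19-KI libraries of that comparison held 308, 5206 and 9554 CPM of epididymal markers, *Gata3* was 8.01, 8.51 and 432 CPM in that group, and the last value is from the library that went against its label. Hepatocyte markers summed to 845 to 1464 CPM in the CCL19-KI and 9497 to 38830 CPM in the WT libraries. *Themis* was 0.393 to 1.95 CPM in the former and 6.70 to 17.0 CPM in the latter. *Gata3* was 2.22 higher without the 2 libraries (adjusted p = 0.165). In unligatured mice fed an ND, *Il2ra* (−1.02) and *Fcer1g* (−1.09) were lower in CCL19-KI than in WT mice, where 16.6% of all genes were called. The WT group there includes the library at 28.6 CPM of *Il7r* and replicate 2, which went against its label. The part of epididymal or other tissue in these calls was not tested.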

How the data were processed

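Libraries were made after rRNA depletion and sequenced as paired reads. The authors trimmed the reads with Trimmomatic 0.38, aligned them with Bowtie2 within RSEM 1.3.0 (the methods name mm10, the labels GRCm39) and normalized the gene counts with edgeR. The deposited signal values are, per the authors' methods, edgeR-normalized CPM of 24750 genes, of which 24626 had a symbol. Divided by what 1 read is worth in a library, 100% of the values came out whole (tolerance 0.01), so reads were recovered. Total reads per library were 11962228 to 21581595, and intervals and floors cover counting error only.

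Genes with at least 1 CPM in at least 3 of 36 libraries (17852) were fitted on log2(CPM + 1), in 12 groups at once, with limma 3.58.1 (eBayes with trend) in R 4.3.3, and p-values were adjusted by the Benjamini-Hochberg method over all of them. Beside that call, the study's limits were applied to the same limma fit. These were an unadjusted p no higher than 0.05 with a ratio no lower than 1.5, or no higher than 0.67. The labels give each mouse as its own sample, and p-values measure the spread between mice. Ratios of members were tested by 100000 permutations within strata of the other 2 factors. The members and gene lists were chosen with earlier results of these data known, and 1 listed gene is not reported here. All members are named, and a fit is printed for each member called and for the one with the largest difference in a comparison. Mice with the same replicate number did not deviate together (median correlation −0.0153 over 198 pairs, against 0.0172 over 396 other pairs), so the numbers do not pair mice. The alternatives tried were a pseudocount of 0.1 or of 5, a mean of at least 5 CPM or no filter, median-of-ratios scaling, the replicate block, edgeR 4.0.16 quasi-likelihood tests on recovered reads, robust eBayes, a fit of 1 ligature state and leaving out each mouse. Chosen after seeing the data were marker covariates (epididymal, hepatocyte, macrophage), leaving out 9 libraries above 100 CPM of epididymal markers, and leaving out the 2 libraries against their genotype label. The fits were tested on simulated data. Python 3.11.15, numpy 2.4.6, pandas 2.3.3 and matplotlib 3.10.9 were used.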

Additional observations from a re-analysis of the deposited data

Results flagged for a closer look

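*Foxp3* differed by genotype in opposite directions in unligatured mice on the 2 HFDs, as every CCL19-KI mouse lay above every WT mouse with a 40% HFD and below every WT mouse with a 60% HFD. CCL19-KI minus WT was 0.36 with the 40% HFD and −0.21 with the 60% HFD on the log2(CPM + 1) scale, which differ by 0.57. Neither passed the test (limma without a filter, adjusted p = 0.752 and 0.201), the difference between the diets was not tested, and *Foxp3* had at most 9 reads in any of these 12 libraries and 0 to 3 reads in those with a 60% HFD, of which the CCL19-KI library with 0 went against its genotype label. Without the 2 libraries that went against their genotype label, the difference with the 60% HFD was −0.17 (limma without a filter, adjusted p = 0.369).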

How the results depend on the processing

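*Il7r* with a 60% HFD against an ND kept its direction and its call under all 13 alternatives, at 1.03 to 1.83 (adjusted p 0.00157 to 0.0224), and in every fit that left out a mouse, at 1.44 to 1.84. The replicate block gave 1.59 (adjusted p = 0.00157) and changed no call of a member. The call in ligatured CCL19-KI mice was lost, with 0 members called, with the epididymal covariate (1.73, adjusted p = 0.185) and without the 9 libraries above 100 CPM of epididymal markers (2.31, adjusted p = 0.122), and leaving out single mice gave 0 to 1 members called (1.69 to 2.87). In ligatured WT mice, a fit of 1 ligature state called 1 member, *Il7r* (1.97, adjusted p = 0.0411). For a 60% against a 40% HFD, 1 member, *Il7r* (1.36), was called without the 2 libraries against their label, and 0 to 1 in fits that left out a mouse (1.07 to 1.37). Reversed without the 9 libraries were *Cd3g* in ligatured mice fed an ND (−0.12) and *Lck* over all genotype comparisons (−0.0865). The difference of the genotype effect of *Il7r* between a 60% HFD and an ND turned to −0.0105 with the hepatocyte and −0.0779 with the macrophage covariate, and was −0.12 to 0.74 without single mice. The genotype difference of *Il7r* was −1.49 to 0.10 (ND, no ligature) and −0.26 to 0.93 (60% HFD, ligature) without single mice. The *Cd8a* to *Cd4* log2 ratio, 60% HFD against ND, turned to −0.00107 with a pseudocount of 5 and −0.0456 without the 2 libraries, and was −0.0387 to 0.0601 without single mice, where *Foxp3* to *Cd4* was −0.0524 to 0.0691. The cause of each was not tested. Over all genes, leaving out the 2 libraries, which also held the most epididymal markers, moved the calls of the averaged genotype comparison from 82 to 1292. With a median of 3 to 19 reads per library, members other than *Il7r* rest on few reads.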
